A study of Mauremys reevesii with 3 samples.

Results

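Predicted small RNAs whose level at 32 °C was at most 0.5 times that at 26 °C were 67 of the 1743 rows of the table, and 67 of its 730 predicted rows. The members were chosen by their 26 and 32 °C counts, as rows with a name beginning novel_, with 10 or more counts in the 26 or the 32 °C library, and with a count per library total at 32 °C of at most 0.5 times that at 26 °C. Of the 220 predicted rows with enough counts, the other 153 stayed above that threshold. Their 32 over 26 °C ratios are therefore given as a description, with no test.

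The species was Mauremys reevesii, the Chinese pond turtle, whose embryos become male or female according to the temperature at which the egg is incubated. Randomly allocated eggs were kept at 26, 29 or 32 °C up to Greenbaum stage 16, the stage at which the gonad becomes responsive to temperature. The tissue was the adrenal-kidney-gonad (AKG) complex, and no genotype or sex was given for the embryos. Each temperature had 1 small RNA library, made after the total RNA of its 3 biological samples was combined, so no difference has a replicate check and intervals cover counting error only. In such a bulk pool, fewer cells of a type and less RNA per cell cannot be told apart.

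MicroRNAs (miRNAs) are cut by the nucleases Drosha and Dicer from hairpin transcripts and guide Argonaute proteins to messenger RNAs, largely through the seed, bases 2 to 8 of the mature strand. An entry that matches no catalogued miRNA can be a lineage-specific miRNA, the unnamed strand of a known hairpin, a small RNA of a repeated element or a fragment of a longer RNA. Entries of this kind are commonly low in abundance. How the predicted entries were found is not given in the sources used here, and they are called predicted small RNAs below.

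The 6 members with the highest counts are shown first, because they held most of the members' reads. The sequences are those of the table, 5′ to 3′, with the seed in capitals.
novel_642: uGUGUCUGucuucgugggc
novel_52: cAUUGGAUuggaggcagcuggu
novel_49: aGGAUGAAacuucugguccuga
novel_543: uGGUUCUUcgagaugugucccc
novel_734: uGCUCAGUgcauuggauucugug
novel_59: cUAACUGUuugcaggauucgu
Their 6 seeds differ from each other.

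The members together went from 5533 counts at 26 °C to 2779 at 29 °C and 1135 at 32 °C. With counts scaled to the same library total (counts per 1000000, CPM) these sums were 592, 289 and 118, or 0.0592%, 0.0289% and 0.0118% of the library. The members held 21.8% of all counts of predicted rows at 26 °C, 10.1% at 29 °C and 6.50% at 32 °C. The libraries held 9348882, 9624436 and 9613861 counts, so 1 count stood for 0.107, 0.104 and 0.104 CPM. The log2 ratio of the sums was -1.04 for 29 over 26 °C (95% exact conditional interval -1.10 to -0.97). That of 32 over 29 °C was -1.29 (-1.39 to -1.19). The choice of members favours high counts at 26 °C and low ones at 32 °C. The sums, shares and ratios carry this choice, and the intervals do not cover it.

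A single entry, novel_642, carried much of this sum. It had 1805, 512 and 121 counts at 26, 29 and 32 °C, which was 32.6% of the members' counts at 26 °C and 10.7% at 32 °C. Without it the sums of the other 66 members were 399, 236 and 105 CPM, and their log2 ratio of 29 over 26 °C was -0.76 (-0.84 to -0.68). Over the 3 libraries the 5 most counted members held 50.9% of the members' 9447 counts and the 10 most counted 69.3%.

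Most members were rare. By the mean CPM of the 3 libraries, 17 of the 67 were below 1 CPM, 42 were from 1 to 10 CPM and 8 were at 10 CPM or more. Among the other 153 predicted rows these numbers were 23, 103 and 27, and among the 594 named miRNA rows with enough counts they were 8, 230 and 356. The median count of a member was 25 at 26 °C, 14 at 29 °C and 6 at 32 °C. All 67 reached 10 counts at 26 °C, 45 did so at 29 °C and 24 at 32 °C. The first of these numbers was fixed by the rule, since a member could reach the minimum only through its 26 °C count. The choice also favours a higher median at 26 than at 32 °C, so nothing is read from this order.

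**Figure D1:**
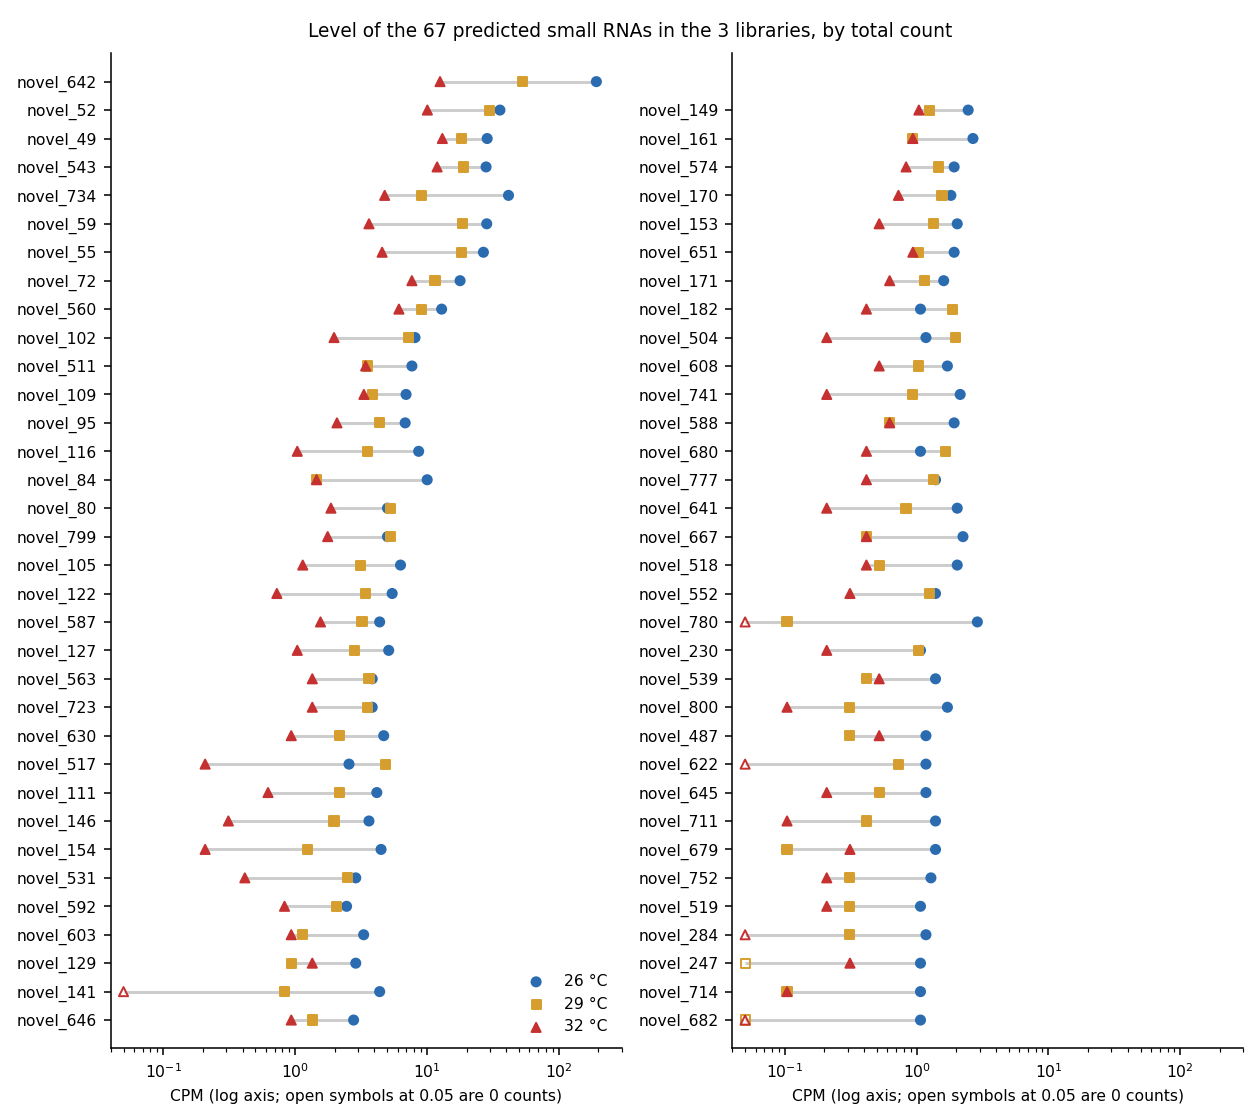
Level of each of the 67 members in CPM (log axis) at 26 °C (circles), 29 °C (squares) and 32 °C (triangles), with 1 library per temperature and the most counted member, novel_642, at the top left. The 32 °C level lies left of the 26 °C level in every row because the members were chosen so, and the 29 °C level lies between them in 50 rows.

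Of the 67 members, 58 also had a 95% interval of the 32 over 26 °C ratio below equality, and in 26 the whole interval was at or below 0.5. Among all 814 rows with enough counts, 14.9% met the threshold, 13.3% met it with an interval below equality and 5.77% had the whole interval at or below 0.5. These intervals use the same counts that chose the members. The 814 rows also include the members, so nothing is read from the contrast. By kind of row the threshold was met by 30.5% of predicted and 9.09% of named rows, shares that belong to the choice of members and from which nothing is read. Predicted rows were rarer than named ones, and 9 members had an interval that included equality. The median log2 ratio of the members was -2.16, or -1.91 with the 5 members at 0 counts set to 3 counts. Just inside the threshold were novel_651 with 18 against 9 counts at 26 and 32 °C, novel_109 with 65 against 32 and novel_560 with 121 against 59. Just outside it were novel_795 with 3065 against 1602 counts, novel_108 with 61 against 32 and novel_47 with 536 against 289.

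The 29 °C library was not used to choose the members, but its ratios to 26 °C and from 32 °C each share a library with the choice, so they too are described without a test. At 29 °C, 31 of the 67 members were at most 0.5 times their 26 °C level, against 7.86% of all 814 rows and 16 of the 153 other predicted rows (10.5%). With an interval below equality as well, this was 26 members, against 6.27% of all rows, and in 8 members the whole interval was at or below 0.5, against 2.83%. In the step from 29 to 32 °C, 39 members were at most 0.5 times their 29 °C level, against 10.2% of all rows. With an interval below equality as well, 30 were, against 8.85%. The median log2 ratio of 29 over 26 °C was -0.89 over the members, 0.02 over the other predicted rows and 0.02 over the named rows. Neither of these other sets was chosen by a low 32 over 26 °C ratio. Over the 54 named rows that met the same 32 over 26 °C threshold the median was -0.68, nearer to that of the members.

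The 29 °C level lay between the other levels in 50 members (74.6%), above the 26 °C level in 6 and below the 32 °C level in 10. In the remaining member, novel_682, the counts were 10, 0 and 0. Among the 10 were novel_84, novel_161, novel_588, novel_667 and novel_714, each with the same count at 29 and 32 °C. These were placed below only by the slightly larger total of the 29 °C library. The interval of the 32 over 29 °C ratio lay above equality in 0 of the 67 members. Choosing rows by a low 32 over 26 °C ratio favours an intermediate 29 °C level. The same choice among named rows gave 54 rows. Of these, 35 (64.8%) had an intermediate 29 °C level, 6 one above both other levels and 13 one below both. Over all 814 rows, with 26 and 32 °C in either order, these shares were 43.1%, 34.5% and 22.2%. Of the 61 members with counts in both warmer libraries, 39 had a 29 °C level nearer to that at 26 °C on the log scale. The other 22 had one nearer to that at 32 °C. These numbers were not computed for other rows, so nothing is read from them.

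**Figure D2:**
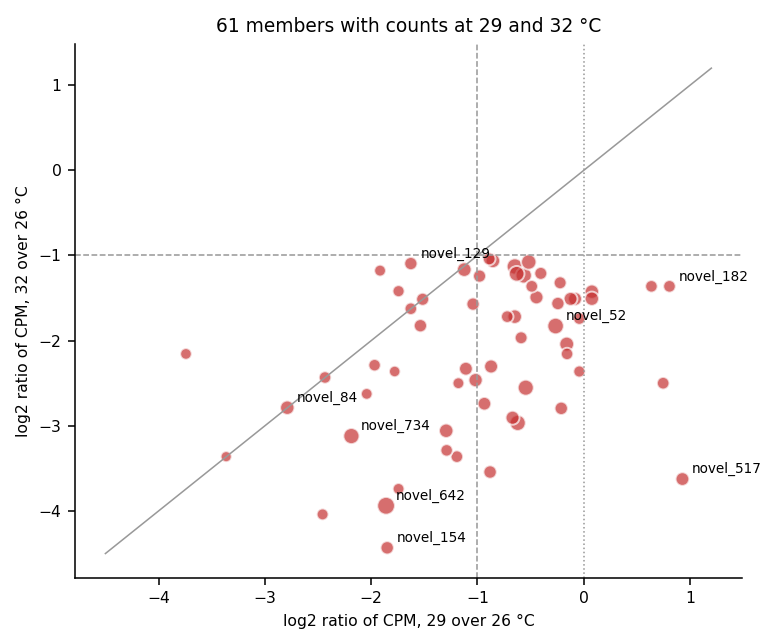
Log2 ratio of CPM of 32 over 26 °C (vertical axis) against that of 29 over 26 °C (horizontal axis) for the 61 members with counts at 29 and 32 °C, with larger points for more counts. Both axes share the 26 °C library, dashed lines mark a ratio of 0.5, the dotted line equal levels at 29 and 26 °C and the diagonal equal levels at 29 and 32 °C, with novel_517 far to the right and novel_84 on the diagonal.

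Several members were lower in each warmer library. The most counted, novel_642, was lower by a log2 ratio of -1.86 (-2.00 to -1.72) from 26 to 29 °C and of -2.08 (-2.38 to -1.79) from 29 to 32 °C. Its level at 32 °C was 15.3-fold lower than at 26 °C. In novel_49 the counts were 268, 176 and 126, and the log2 ratio was -0.65 (-0.93 to -0.37) for the first step and -0.48 (-0.82 to -0.14) for the second. The intervals of both steps also stayed below equality in novel_543, with 263, 183 and 115 counts, novel_72, with 167, 111 and 74, and novel_560, with 121, 87 and 59. With trimmed-mean (TMM) factors the upper limit of the second step reached 0.06 for novel_49, 0.05 for novel_72 and 0.13 for novel_560. These intervals then included equality, while that of novel_543 did not. With the same factors the log2 ratio of 32 over 26 °C was -0.91 for novel_49 and -0.86 for novel_560, above the threshold.

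In other members most of the difference lay between 29 and 32 °C. For novel_59 the counts were 266, 178 and 35, with a log2 ratio of -0.62 (-0.90 to -0.34) from 26 to 29 °C and -2.34 (-2.91 to -1.82) from 29 to 32 °C. The ratios of novel_55, with 251, 177 and 44 counts, were -0.55 (-0.83 to -0.26) and -2.01 (-2.52 to -1.52). The entry novel_52 had 335, 287 and 97 counts, at -0.27 (-0.50 to -0.03) and -1.56 (-1.91 to -1.23). In these 3 entries the intervals of the first and second step do not overlap. Both steps use the same 29 °C count, however, so an error in it moves them in opposite directions. For novel_102, with 76, 70 and 19 counts, the interval of the first step included equality and that of the second, -1.88 (-2.69 to -1.13), did not.

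A further set was already low at 29 °C. Its sequences are shown because, with novel_642 and novel_734 above, they had the lowest upper interval limits of the 29 over 26 °C ratio. Some rarer members had ratios below that of novel_141, with wider intervals.
novel_84: aAUGUCCUggcugcuuguugg
novel_141: aCUCAAAUugcguagcuuaga
novel_780: cACUGUAGugcugugcagaccuu
For novel_734 the counts were 389, 88 and 46, with a log2 ratio of 29 over 26 °C of -2.19 (-2.54 to -1.85) and one of 32 over 29 °C of -0.93 (-1.48 to -0.40). For novel_84 the counts were 94, 14 and 14, the same count in both warmer libraries, where the interval of the log2 ratio of 32 over 29 °C ran from -1.18 to 1.18. The counts were 41, 8 and 0 for novel_141, which put the 32 °C level at least 14.1-fold below the 26 °C level by a floor of 3 counts per library in place of the 0. This floor leaves out the counting error of the 26 °C count, and the upper limit of the exact interval of the log2 ratio was -3.45, a smaller difference. They were 27, 1 and 0 for novel_780, at least 9.26-fold below by the floor, with an upper limit of -2.81. The log2 ratio of 29 over 26 °C was -2.40 (-3.70 to -1.29) for novel_141 and -4.80 (-10.15 to -2.20) for novel_780, which rests on 1 count.

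The other members at 0 counts at 32 °C were novel_622 with 11, 7 and 0 counts, novel_284 with 11, 3 and 0, and novel_682. Their levels at 32 °C were at least 3.77-fold, 3.77-fold and 3.43-fold lower than at 26 °C by the same floor. The upper limits of the exact intervals of their log2 ratios were -1.37, -1.37 and -1.20, again smaller differences. A count of 0 among the 9613861 counts of the 32 °C library allows a level of up to 0.312 CPM. For novel_154, with 42, 12 and 2 counts, the log2 ratio of 32 over 26 °C was -4.43, with a wide interval of -7.52 to -2.49.

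The 6 members highest at 29 °C did not follow the order of temperature. The clearest was novel_517, shown with 2 more of them.
novel_517: uCUGGGCAguguccacuggcu
novel_504: uUCGGGUGuggcaaacugggu
novel_182: aACUGCUCccuuugaagucaau
Its counts were 24, 47 and 2, with a log2 ratio of 29 over 26 °C of 0.93 (0.19 to 1.70). It was the 1 member of 67 whose interval for this ratio lay above equality. The share of all rows with such an interval was not computed, so nothing is read from this number. The ratio was 0.75 (-0.40 to 1.96) for novel_504, with 11, 19 and 2 counts, and 0.81 (-0.39 to 2.08) for novel_182, with 10, 18 and 4. In novel_80, with 47, 51 and 18 counts, and novel_799, with 47, 51 and 17, it was 0.08 (-0.52 to 0.68), and novel_680 had 10, 16 and 4 counts. Apart from novel_517 the 29 and 26 °C levels of these members could not be told apart at this depth.

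The remaining members are given by their range. Outside the 10 most counted, the other 57 members had from 10 to 94 counts at 26 °C, from 0 to 51 at 29 °C and from 0 to 33 at 32 °C. Their log2 ratio of 32 over 26 °C ran from -4.43 to -1.04 in the 52 with counts at 32 °C. That of 29 over 26 °C ran from -4.80 to 0.93 in the 55 with counts at 29 °C.

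The members were mostly of the usual length of a miRNA. Their median length was 22 bases, with a range of 18 to 24, and 60 of 67 (89.6%) were 21 to 23 bases long. Among the other predicted rows 137 of 153 (89.5%) were of these lengths, and among the named rows 437 of 594 (73.6%). A length of 22 bases was held by 31 members (46.3%), 81 other predicted rows (52.9%) and 228 named rows (38.4%). The most counted member was an exception in length, since novel_642 has 19 bases. The first base was U in 36 members (53.7%), A in 20, C in 9 and G in 2, and U in 82 of the other predicted rows (53.6%) and 287 named rows (48.3%). G and C made up from 26.1% to 68.2% of a member's bases, with a median of 47.8%, and from 27.3% to 81.0% in the other predicted rows. No test over rows was made for these features, since related rows are not independent.

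**Figure D3:**
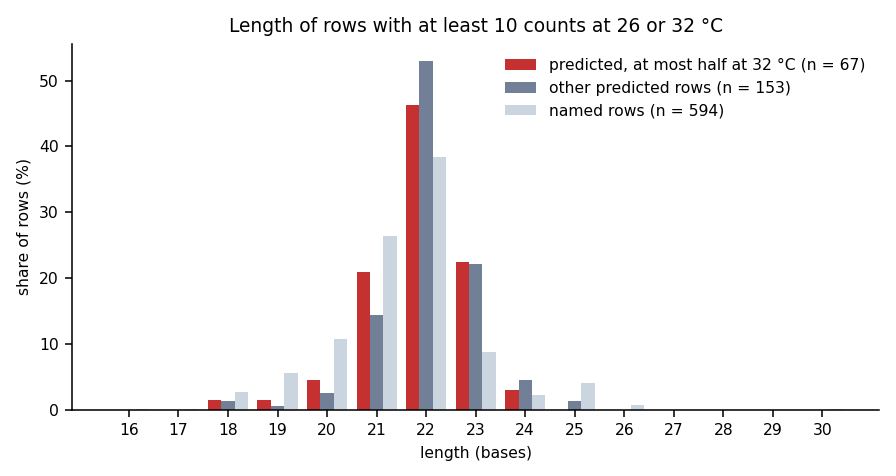
Share of rows (%) by length in bases for the 67 members, the other 153 predicted rows and the 594 named rows with at least 10 counts at 26 or 32 °C. Lengths of 21 to 23 bases make up 89.6% of the members, 89.5% of the other predicted rows and 73.6% of the named rows.

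Few members repeated another row. A run of at least 16 bases on the same strand was shared with another row by 10 of the 67 members (14.9%), against 30 of the 153 other predicted rows (19.6%) and 536 of the 594 named rows (90.2%), which list the same miRNA under several species. Joined by such runs on either strand, the members formed 64 sequence groups. Only 3 pairs of members shared such a run.
novel_543: uGGUUCUUcgagaugugucccc
novel_603: gUUCUUCGagaugugucccc
novel_563: uAAGUUAUgcuacuccagcuau
novel_723: uAAGUUAUgcuacuccagcua
The entry novel_603 lies within novel_543, starts 2 bases later and so has another seed. It had 31, 11 and 9 counts against 263, 183 and 115. The entries novel_563 and novel_723 differ by the last base, have the same seed and had 36, 35 and 13 against 36, 34 and 13 counts, which is nearly the same value under 2 names. The third pair, novel_116 and novel_539, belongs to the related rows described below.

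A run of at least 16 bases with a named row was found in 1 member, novel_111, and in 2 of the 153 other predicted rows.
novel_111: aUUGUGAUuuccaauaauugaga
It shares 20 bases with the row mmu-miR-3618-5p and starts 2 bases before it, which gives it another seed. In mammals mir-3618 is a hairpin within the transcript of DGCR8, the partner protein of Drosha. The counts of novel_111 were 39, 21 and 6, with a log2 ratio of 32 over 26 °C of -2.74 (-4.27 to -1.49), and the named row had 2, 0 and 1. The median of the longest run that a member shared with any named row was 8 bases, the same as in the other predicted rows.

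A seed of a named row was found in 3 members, against 7 of the 153 other predicted rows.
novel_734: uGCUCAGUgcauuggauucugug
novel_109: cUGGUCCCcucuggacugugcucu
novel_171: uGUGUGUGaaucugcagaguua
The seed of novel_734 is that of the 5p strand of miR-222, a miRNA of a cluster with miR-221, whose row tgu-miR-222-5p had 1146, 995 and 921 counts and a 32 over 26 °C ratio of 0.782. The seed of novel_109 is that of some, not all, of the 19 rows of miR-133, a miRNA of striated muscle. The most counted row with this seed, dme-miR-133-3p, had 573, 505 and 534 counts and a ratio of 0.906. The counts of novel_109 itself were 65, 37 and 32, with a log2 ratio of 32 over 26 °C of -1.06 (-1.72 to -0.43). The GU-repeat seed of novel_171, with 15, 11 and 6 counts, is that of mmu-miR-466i-5p, with 8, 5 and 2. Outside the seed the sequences differ. The longest run shared with any named row of the same seed was 8 bases for novel_734, 9 for novel_109 and 8 for novel_171. With tgu-miR-222-5p itself novel_734 shared a run of 7 bases. Of the 67 members, 48 (71.6%) had a seed that no other row of the table had, against 97 of the 153 other predicted rows (63.4%). Among the members, 2 pairs shared a seed. Besides novel_563 with novel_723 these were novel_52 and novel_800, the latter with 16, 3 and 1 counts.

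The opposite strand of another row was matched over at least 16 bases by 4 members (5.97%), against 25 of the other predicted rows (16.3%). The entries novel_563 and novel_723 match the reverse complement of novel_110, which had 51, 53 and 47 counts and a log2 ratio of 32 over 26 °C of -0.16 (-0.76 to 0.44). The opposite row was thus above the threshold while both members were at -1.51 (-2.55 to -0.56). The other matches were those of novel_116 and novel_539.

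These last members belong to a family of related predicted rows. Allowing at most 3 mismatches in an overlap with at least 16 identical bases on either strand, a criterion chosen after the sequences were seen, 24 of the 67 members (35.8%) matched another row, against 67 of the 153 other predicted rows (43.8%). The largest set of rows joined in this way held 54 predicted rows, 24 of them with enough counts and 5 of them members, namely novel_116, novel_153, novel_539, novel_587 and novel_799. Among all 220 predicted rows with enough counts, 30.5% were members. An 8-base core, GUAGCUUA or its reverse complement UAAGCUAC, was seen in 5 of the 67 members (7.46%), 6 of the 153 other predicted rows (3.92%), 18 of all 730 predicted rows (2.47%) and 0 of the 1013 named rows. The core was read from these same sequences, and no chance level was computed for it. Some rows that hold it are near matches of each other, so they are not independent and nothing is read from the shares. The core is in capitals in the rows below, the first 5 being the members that hold it and the last 3 rows above the threshold. The core and the set of 54 rows do not coincide. The member novel_799 is in the set without the core, and novel_141 has the core but is not in the set.
novel_141: acucaaauugcGUAGCUUAga
novel_153: acuggagucgguGUAGCUUAgg
novel_587: acucaagucgauGUAGCUUAgau
novel_116: UAAGCUACgucgacuugaguua
novel_539: ccUAAGCUACgucgacuucagcu
novel_795: acuggagucgauGUAGCUUAgg
novel_38: gcuggagucgacGUAGCUUAgg
novel_130: ccUAAGCUACgucgacuccagcg

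Near-identical rows of this family stood on either side of the threshold. Among the members with the core, novel_116 had the lowest log2 ratio of 32 over 26 °C among those with counts at 32 °C. Its counts were 81, 34 and 10 and the ratio was -3.06 (-4.17 to -2.11). For novel_587 the counts were 41, 31 and 15, at -1.49 (-2.45 to -0.61), and for novel_153 they were 19, 13 and 5, at -1.97 (-3.74 to -0.50). The counts of novel_539 were 13, 4 and 5, with an interval of -3.26 to 0.16 that included equality. The most counted row with the core was novel_795, just outside the threshold, with 3065, 2817 and 1602 counts and a log2 ratio of -0.98 (-1.06 to -0.89). Further above it were novel_143 with 25, 26 and 24 counts and novel_755 with 17, 12 and 17.

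The rows novel_38 and novel_130, which match as reverse complements, had the same counts of 127, 116 and 88, with a log2 ratio of -0.57 (-0.98 to -0.17). Opposite strand refers here to the sequences alone, since no row was placed in a genome. They were the 1 pair of opposite-strand predicted rows with enough counts whose counts were identical in all 3 libraries. For such rows the strand of the reads cannot be told from the table, and how reads that match several rows were counted is not given in the sources used here. The counts of members of this family are therefore uncertain between related rows.

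**Figure D4:**
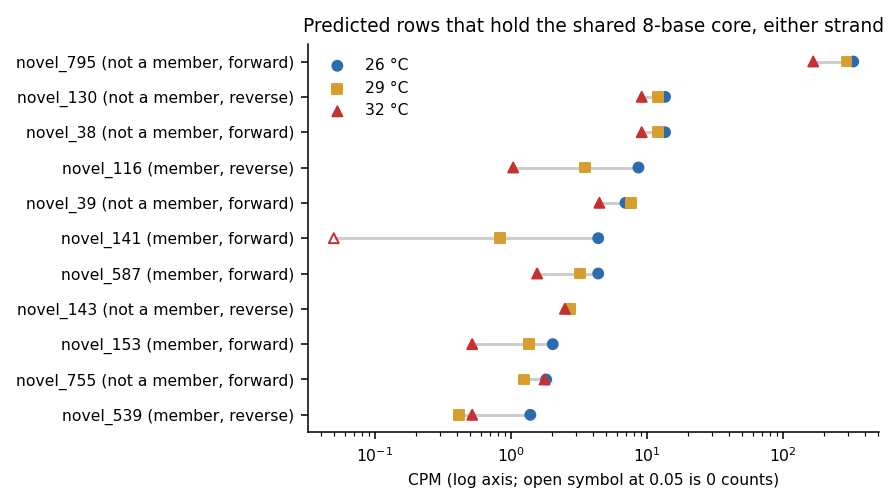
Level in CPM (log axis) at 26, 29 and 32 °C of the 11 predicted rows with enough counts that hold the 8-base core on the strand given (forward) or as its reverse complement (reverse), with 1 library per temperature. The 5 members, marked as such, spread from 0 CPM to 1.56 CPM at 32 °C, while novel_795 is at 167 CPM there.

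Outside this family, novel_105 was a near match, by the same criterion of at most 3 mismatches, of an abundant predicted row with a different order of levels.
novel_105: uGGUGUAAauuguuauagcuc
novel_16: aGGUGUAAacugauauagcucu
Both have the same seed. The counts of novel_105 were 59, 30 and 11, with a log2 ratio of 32 over 26 °C of -2.46 (-3.54 to -1.52). Those of novel_16 were 5993, 10646 and 3823, highest at 29 °C. Other near matches of novel_105 were novel_64, highest at 32 °C with 106, 114 and 192 counts, and novel_424, with 7, 2 and 3. The rest had at most 4 counts in any library.

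Named miRNAs that mark cell types were read as a check of the tissue. Of 19 marker families 16 had a row. Markers of the gonad and the kidney were present, with 7500, 9800 and 3140 counts of mmu-miR-202-5p and 38237, 31766 and 25229 of ola-miR-192-5p. The other kidney markers differed less between libraries or in another order. Counts were 7229, 7058 and 6899 for mmu-miR-194-5p and 628, 595 and 508 for hsa-miR-215-5p. The marker hsa-miR-30c-5p was lowest at 29 °C, with 50205, 41863 and 51485 counts. Adrenal-associated miR-24 had 2045, 2426 and 2523 counts of hsa-miR-24-3p, and no rows of miR-132 or miR-212 were analysed here. Of neuronal markers, dre-miR-137-3p had 47, 107 and 105 counts and was higher in both warmer libraries, ssa-miR-9b-5p had 1, 0 and 2, and no row of miR-124 was analysed here. The liver miRNA miR-122 was present and lower in both warmer libraries, with 5629, 1410 and 1680 counts of cgr-miR-122, and miR-202 was lower at 32 °C. The red-cell markers differed in order, with 44, 9 and 25 counts of hsa-miR-451a and 5, 11 and 2 of dre-miR-144-5p. So did those of striated muscle, with 766, 528 and 440 counts of mdo-miR-206, 573, 505 and 534 of dme-miR-133-3p and 36, 58 and 30 of gga-miR-1b-3p. Leukocyte miR-223 had 369, 774 and 380 counts of hsa-miR-223-3p, and leukocyte miR-142 had 77, 126 and 57 of aca-miR-142-3p. Their part in the members' differences was not tested.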

How the data were processed

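Small RNAs of 3 libraries were analysed, 1 per incubation temperature, each of pooled RNA, per the labels' protocols. Raw read counts were listed per row, per the file headers. The TPM that the authors deposited was the count per 1000000 of the column total, with no length term, to within 0.01% in each of the 1743 rows. The submitters' processing notes name FastQC and Bowtie without versions. The genome build, the mismatches allowed, the prediction of entries and the treatment of reads matching several rows are not given in the sources used here. Columns were assigned to temperatures by name.

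Ratios of CPM on the column total were given 95% exact conditional (Clopper-Pearson) intervals for the 2 counts. With 1 library per temperature no test across libraries was made, and there is no p-value. Amplified reads are not independent molecules, so the intervals and the floor of 3 counts cover counting error only. The ratio step was checked on simulated counts.

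Members and lists were chosen with earlier results of these data known. Named members were the 10 most counted, the 5 with the lowest upper limit for 32 over 26 °C, the 3 nearest the threshold on either side, the 5 highest and 5 lowest for 29 over 26 °C by the interval bound nearest to equality, those at 0 counts at 32 °C, the most counted of the 5 largest sequence groups, and those with the seed of a named row. Further members (novel_105, novel_111, novel_153, novel_539, novel_574, novel_603, novel_630, novel_667, novel_680, novel_723, novel_799 and novel_800) were named after their values were seen. Alternatives were TMM factors (edgeR 4.0.16), median-of-ratios size factors (DESeq2 1.42.0), other totals, count minimums, interval rules and lengths of shared runs. Calculations used Python 3.11.15, numpy 2.4.6, scipy 1.17.1, pandas 2.3.3, matplotlib 3.10.9 and R 4.3.3.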

Additional observations from a re-analysis of the deposited data

How the results depend on the processing

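No paired analysis was possible because a single library was made at every temperature. The number of members was 67. It was 59 with TMM factors and 62 with DESeq2 size factors, all of them among the 67, and stayed 67 with the other totals and with the deposited TPM. It was 39 with a minimum of 20 counts, 17 with 50 counts, 262 with 1 count, 38 with a pseudocount of 1 CPM and 26 with the whole interval at or below 0.5. With TMM and with DESeq2 size factors, novel_49, novel_560, novel_109 and novel_651 were among those no longer members. TMM factors moved the median log2 ratio of 32 over 26 °C of all rows from -0.13 to 0.09. The 31 members at most 0.5 times their 26 °C level at 29 °C became 8 with the whole interval at or below 0.5. The 29 °C level was intermediate in 48 to 50 members under the 4 other scalings. The summed CPM without the most counted member was 399, 236 and 105 at 26, 29 and 32 °C. Weighted by counts, 68.4% of the members' reads were 21 to 23 bases long and 67.0% began with U. Of the members, 2 matched an opposite strand over 18 bases. With at most 3 mismatches, an alternative chosen after seeing the data, 21 matched another row on the same and 11 on the opposite strand. With the seed taken as bases 2 to 7, 6 members had that of a named row. For members named by rule, all 73 log2 ratios with counts in both libraries stayed within their intervals under the 4 other scalings. Each scaling moves all ratios of a library pair by the same amount, so these are not 73 separate checks. Some rescaled intervals still came to include equality. Among the members named by rule, those of 32 over 29 °C did so in novel_49, novel_72, novel_560 and novel_587, with TMM and with DESeq2 size factors. Among the same members, that of 32 over 26 °C did so in novel_519 with both kinds of factors. Rescaled intervals of the other members were not computed. Some of them had upper limits near equality on the library total. For 32 over 26 °C these were -0.05 in novel_777 and -0.09 in novel_129, and for 32 over 29 °C -0.03 in novel_630. The interval of 29 over 26 °C in novel_284 fell below equality with the total without the most counted row. Depth limits the rarest members, and 9 of the 67 had a 32 over 26 °C interval that included equality on the library total. This number was not computed with TMM or DESeq2 size factors.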

Other observations

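A second set of related predicted rows, joined by overlaps with at most 3 mismatches and found after the data were seen, held 49 rows, 17 of them with enough counts. Of these, 6 were members (novel_182, novel_519, novel_574, novel_622, novel_630 and novel_667). Among all 220 predicted rows with enough counts 30.5% were members, so nothing is read from this number. In the same set 5 of the 17 rows were at least 2-fold higher at 32 than at 26 °C. In the largest set, of 54 rows, this was 1 of the 24 with enough counts. The share of such rows over all rows was not computed, so nothing is read from these numbers. The summed counts of its 49 rows were 532, 662 and 589 at 26, 29 and 32 °C, and those of its 6 members were 114, 67 and 27. The intervals of the ratio of 32 over 26 °C were wide in this set, from -5.59 to -0.13 on the log2 scale for novel_519, which had 10, 3 and 2 counts and an upper limit of 0.08 with TMM factors. A smaller set held 19 rows, 9 with enough counts, 3 of them members (novel_141, novel_563 and novel_723), and nothing is read from that number either.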
